A study of Mus musculus with 4 samples.

Results

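The cells described here are goblet cells of the small intestine with a high level of the mucin transcript Muc2 and a low level of Clca1, the transcript of a metalloprotease of the mucus layer. They were chosen by thresholds on their own transcripts, in UMIs per 10000 (a UMI is a counted mRNA molecule). A cell needed at least 50 of Muc2, under 30 of Clca1 and under 3 of Mxd1. It also needed under 5 of Muc3, Gsdmc2, Gsdmc3 and Gsdmc4 summed, under 5 of 10 mitotic genes summed, and under 2 of Lgr5, Smoc2 and Clca3b summed, which keeps out surface-like, dividing and crypt-base cells. In all 338 of 3746 kept cells passed, 156 of 1509 (10.3%) in library 1 and 182 of 2237 (8.14%) in library 2. They are called Clca1-low cells below. Cells that failed on Clca1 alone, 612 and 781 in number, are called Clca1-high.

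Both libraries are of Si8, the name in the labels for section 8 of the small intestine, and 2 more are of the distal colon (DC). All were made from RedMUC298trTg mice of 6 to 8 weeks of age, whose goblet cells carry an mCherry reporter, and the labels name no treatment. Live cells were sorted by mCherry signal with a C57Bl6 mouse as the negative control. The labels say neither which side of the mCherry gate went into a library nor how many mice it pooled, so p-values measure only the spread between these libraries, which may be technical. The Si8 libraries held 26075303 and 53675821 UMIs. Clca1-low cells had medians of 19487.5 and 19110 UMIs, close to the 18998 and 19405 of Clca1-high cells. DC cells passing the same thresholds, 246 and 1025 in number, had medians of 11217 and 9955. Any pair of libraries shared 1 to 16 cell barcodes.

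Goblet cells make the gel of the gut by packing the mucin Muc2 into granules. The mucin is folded and cross-linked in the endoplasmic reticulum (ER), with Agr2 and other disulfide isomerases, and then O-glycosylated in the Golgi. Goblet cells arise from Notch-low progenitors in the crypt under the factor Atoh1, and change their secreted products as they move up towards the surface. Paneth cells, the defensin-secreting neighbours at the crypt base, come from the same secretory lineage.

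Of the markers, Muc2 was in the rule, so its level is given as a description, while Agr2, Reg4 and Pdia5 were not. Agr2 stood at 37111 and 34536 CPM (the share of a gene in the summed UMIs of a group of cells, where 100 CPM is 1 UMI per 10000) in Clca1-low cells of libraries 1 and 2, and Muc2 at 8490 and 8647. In absorptive cells, which were picked for low Muc2, Agr2 stood at 493 and 684 CPM. Reg4, a secreted C-type lectin, was at 505 and 1068 CPM, and Pdia5, a disulfide isomerase, at 330 and 251. The word crypt in the working name was not tested, since dissociated cells keep no position. Of 23 stem and crypt-base markers only 3 reached 50 CPM in Clca1-low or Clca1-high cells of both libraries, and the stem cell marker Olfm4 had 1 UMI in each library. The thresholds cut through a continuum. Between 20 and 30 of Clca1 lay 43 and 61 cells, and between 30 and 40 lay 55 and 72. Between 50 and 60 of Muc2 lay 31 and 39 cells, and between 40 and 50 lay 16 and 25.

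Because the cells were picked by their own values, levels in them against other Si8 cells are descriptions without a test. Folds were taken inside each library on the log2(CPM + 10) scale, and a gene was counted when it was at least 2-fold apart in both libraries. Against Clca1-high cells, 16 of 2055 genes at 50 CPM or more were counted as higher (0.779%) and 24 as lower (1.17%). Without Si8 replicate 1, where only library 2 has to pass, 41 were higher. The genes of the rule are left out of all counts.

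Reg4 led the higher genes. It stood at 505 and 1068 CPM in Clca1-low cells against 38.4 and 115 in Clca1-high cells, log2 differences of 3.41 and 3.11. Its level was higher in library 2 in both kinds of cell, so the folds lay close together while the levels did not. Mmp7, the metalloprotease that activates pro-defensins, was at 1767 and 1284 CPM against 449 and 351. Itln1, a lectin that binds microbial glycans, was at 1633 and 1988 CPM against 264 and 509. For Reg4, Mmp7 and Itln1 the Clca1-low value of the lower library exceeded the Clca1-high value of the higher one. They were chosen for large folds in both libraries, so this adds no support. The share of all genes with such a gap was not counted.

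The bases just before the annotated starts of Reg4, Mmp7 and Itln1 are shown because each was higher in Clca1-low cells of both libraries. Those of Fcgbp, which was lower in Clca1-low cells, are shown beside them. They are the 150 bases upstream of the RefSeq start on the gene's strand (GRCm38.p6), at chr3:98222006-98222155 (plus strand) for Reg4, chr9:7691940-7692089 (plus) for Mmp7, chr1:171535295-171535444 (minus) for Itln1 and chr7:28071086-28071235 (plus) for Fcgbp. Capitals mark the TATA-type motif TATAAA, searched on both strands.
Reg4: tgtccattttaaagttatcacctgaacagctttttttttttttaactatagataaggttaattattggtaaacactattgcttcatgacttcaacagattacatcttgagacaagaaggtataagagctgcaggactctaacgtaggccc
Mmp7: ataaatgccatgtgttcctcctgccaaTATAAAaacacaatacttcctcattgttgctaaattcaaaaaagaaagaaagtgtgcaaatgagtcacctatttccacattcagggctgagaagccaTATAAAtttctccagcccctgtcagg
Itln1: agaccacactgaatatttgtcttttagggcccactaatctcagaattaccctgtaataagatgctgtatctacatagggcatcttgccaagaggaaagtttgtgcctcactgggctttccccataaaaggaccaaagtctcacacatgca
Fcgbp: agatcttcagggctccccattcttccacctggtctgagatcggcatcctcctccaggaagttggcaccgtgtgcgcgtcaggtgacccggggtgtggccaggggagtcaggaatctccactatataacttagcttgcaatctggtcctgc

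Of these stretches only that of Mmp7 held the motif. Within 250 bases upstream it was found in 3 of the 9 higher genes with a RefSeq promoter, in 4 of the 18 lower ones in 7.14% of the 1568 promoters of genes at level and in 12.95% of all 27025 promoters. The Wnt-factor motifs CTTTGAA and CTTTGAT were in none of these 27 promoters, in 5.10% of those of genes at level and in 7.63% of all, and the E-box CAGCTG, a core bound by factors of the Atoh1 kind, was in 2 of the 9, 2 of the 18, 10.5% of those of genes at level and 12.8% of all. Such counts describe letters alone.

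Other genes of the higher group encode proteins of several kinds. Cd24a, a glycosylated surface protein of crypt cells, stood at 422 and 428 CPM in Clca1-low cells against 93.8 and 107 in Clca1-high cells. Sox9, a transcription factor of the crypt base, stood at 83.9 and 80.4 CPM against 31.6 and 21.6. Gpx2, an epithelial glutathione peroxidase, was at 532 and 447 CPM against 209 and 143. Guca2b, which encodes the hormone uroguanylin, was at 539 and 515 CPM against 164 and 188, while its relative Guca2a was level at 9981 and 10534 CPM against 11021 and 12603. Retnlb, an antibacterial resistin-like protein, was at 114 and 79.8 CPM against 18.5 and 5.67. The remaining higher genes were Defa17, Defa3 and Defa26, Oit1, Cd177, the chemokine gene Ccl9, Hpd and Cd74. Pdia5 missed the count at log2 differences of 0.96 and 0.99.

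The lower genes included components of the mucus itself. Zg16, a lectin that binds bacterial cell walls, stood at 19558 and 23730 CPM in Clca1-low cells against 81538 and 104577 in Clca1-high cells, log2 differences of -2.06 and -2.14. Fcgbp, a large mucus protein cross-linked to Muc2, stood at 3262 and 3555 CPM against 11582 and 13184. The trefoil peptide gene Tff3 was lower without reaching 2-fold, at 57624 and 49586 CPM against 94398 and 94274. Spink4, a granule protein, went the other way, at 42738 and 38595 CPM against 31470 and 29813. Mucus products thus differed in opposite directions within the same cells. With library totals 4 of 11 mucus components at level were higher and 6 lower in both libraries. Of all genes at level 67.1% were higher and 23.2% lower. With TMM scaling, explained below, 3 of the 11 were higher and 6 lower. The difference of Spink4 alone is given with library totals only.

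Genes of late goblet cells were lower too. Lgals3, a galectin of differentiated epithelium, stood at 61.5 and 131 CPM in Clca1-low cells against 541 and 768 in Clca1-high cells. Krt20, a keratin of the upper crypt and surface, stood at 308 and 340 CPM against 697 and 839. Cdkn1a, the cyclin-dependent kinase inhibitor p21, was at 119 and 135 CPM against 399 and 403. Cdkn2b and Gadd45a were each over 2-fold lower as well. Of 16 late and surface goblet genes at level, 14 were lower in both libraries (87.5%), against 23.2% of all genes at level, and their median log2 difference was -0.64 against 0.20.

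Id1 and Id3, direct targets of BMP signalling, which is strongest towards the villus, were among the lower genes as well. Id1 stood at 93.6 and 129 CPM against 404 and 464 in Clca1-high cells, and Id3 at 263 and 358 against 853 and 1016. Id2 was lower at 60.4 and 81.5 CPM against 153 and 165. These were the 3 genes at level of a 9-gene BMP target list chosen after the values had been seen.

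**Figure D1:**
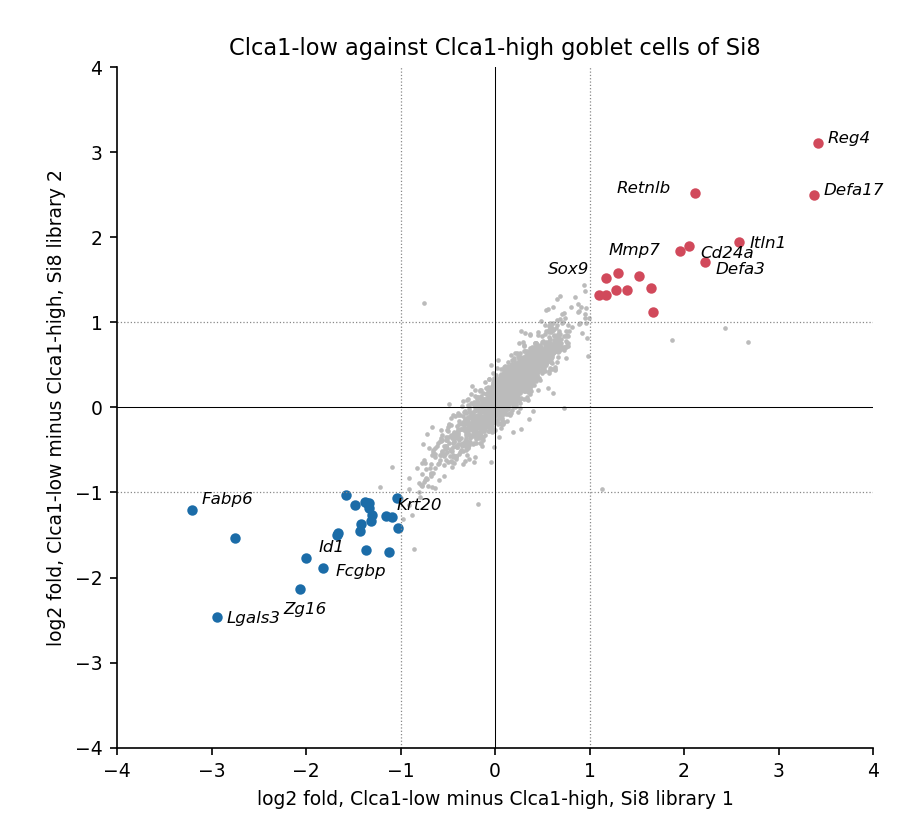
Log2 difference between Clca1-low and Clca1-high goblet cells in Si8 library 1 (horizontal) and library 2 (vertical), 1 point per gene at 50 CPM or more, with 10 CPM added. Red points are the 16 genes at least 2-fold higher and blue points the 24 at least 2-fold lower in both libraries, and dotted lines mark 2-fold. Reg4, at 3.41 and 3.11, lies farthest to the upper right, and Lgals3 lies at -2.95 and -2.47 on the lower left.

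The same genes were followed along Clca1 itself, in 6 bins of Clca1-low and Clca1-high cells. Reg4 stood at 1084 and 2736 CPM in cells with under 5 of Clca1 per 10000 (43 cells in each library), at 291 and 589 in those from 15 to 30, at 65.4 and 224 from 30 to 60, and at 18.3 and 25.3 above 100. Cd24a went from 561 and 669 CPM in the lowest bin to 51.8 and 51.2 in the highest. Zg16 went the other way, from 8592 and 9964 CPM to 107218 and 145186. Across the threshold of 30 Reg4 and Cd24a were lower and Zg16 higher from one bin to the next, and they also differed between bins on either side of it. Itln1 and Defa24 were less regular within Clca1-low cells of library 1, where Itln1 stood at 3567, 561 and 1149 CPM in the 3 bins in order of Clca1. Agr2 kept to a narrower range, between 24295 and 38975 CPM over the 12 values.

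**Figure D2:**
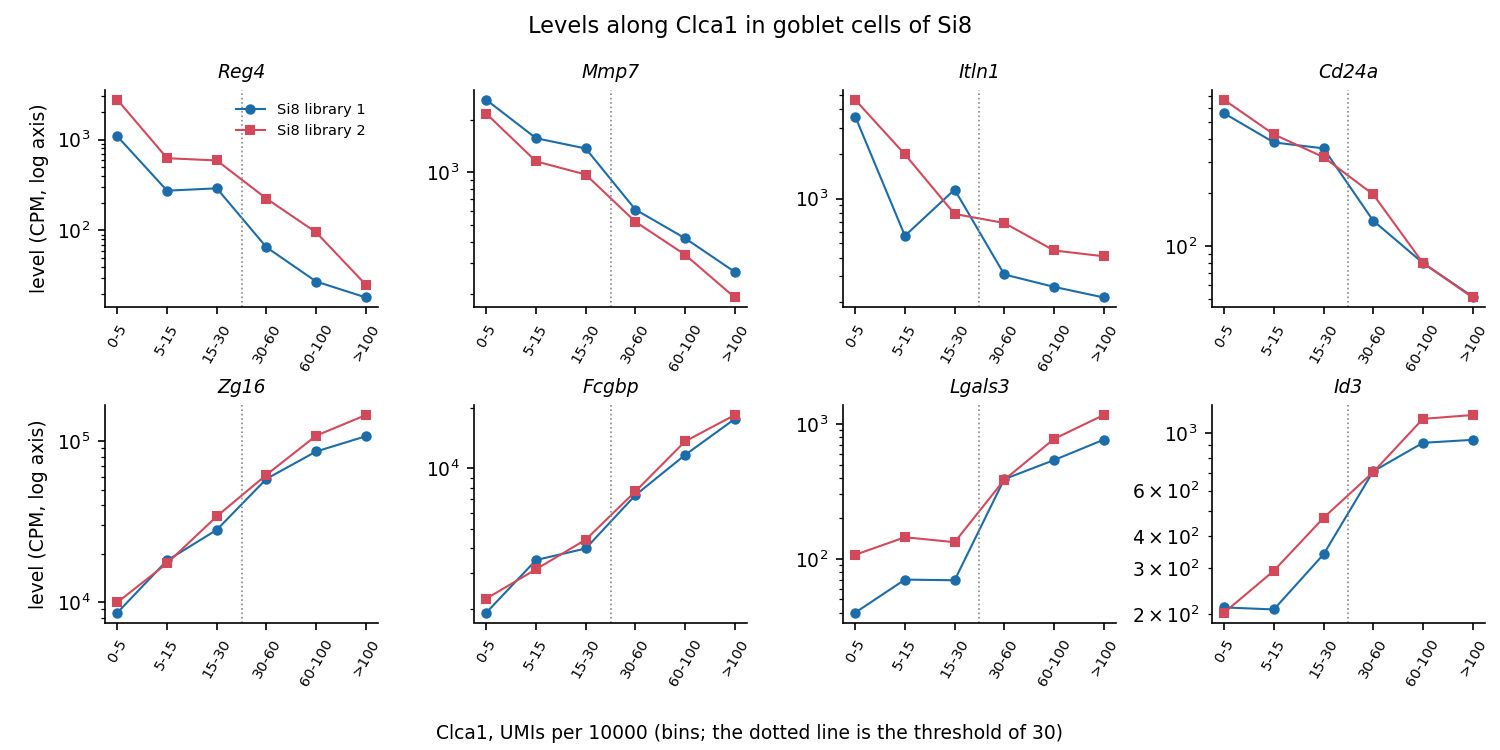
Level in CPM (log axis) of 8 genes in bins of Clca1, in UMIs per 10000, for Clca1-low cells (left of the dotted line at 30) and Clca1-high cells (right of it) of each Si8 library. Reg4, Mmp7, Itln1 and Cd24a are highest in the leftmost bin, and Zg16, Fcgbp, Lgals3 and Id3 are highest in the rightmost.

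The genes of protein production depended on the scaling. With library totals, 31 of 36 ER folding genes were higher in Clca1-low than in Clca1-high cells of both libraries, 53 of 53 genes of ER translocation and ER to Golgi transport, and 21 of 26 genes of mucin-type glycosylation, against 67.1% of all genes at level. Their median log2 differences of 0.23, 0.23 and 0.24 stood beside 0.20 for all genes. With TMM scaling, which centres the bulk of genes, the median over all genes moved to -0.07 and those of the 3 lists to -0.04, -0.03 and -0.02, so their direction turned. The chaperone gene Hspa5 was at 2224 and 2095 CPM against 1950 and 1679. Gne, which starts sialic acid synthesis, was at 87.7 and 87.5 CPM against 43.0 and 34.8, and Slc35a1, the Golgi carrier of activated sialic acid, at 169 and 162 against 84.2 and 83.8. With TMM the counts of genes at least 2-fold apart were 13 higher and 34 lower, so 27.7% of counted genes were higher in place of 40%.

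Ribosomal and nucleolar genes, lists chosen after the values had been seen, kept their direction under both scalings. All 77 cytosolic ribosomal protein genes were higher in Clca1-low cells of both libraries. Their median log2 difference was 0.62 with library totals and 0.35 with TMM. Of all genes at level 67.1% were higher in both libraries with totals, and the share with TMM was not counted. Rps18 stood at 3375 and 3671 CPM against 1993 and 2023. Of the nucleolar and growth genes at level all 11 were higher with totals, and all 10 at level with TMM. Against all other kept Si8 cells 4 of 12 were higher and 4 lower in both libraries with totals. In that comparison 68 of the 77 ribosomal genes were higher. Npm1, a nucleolar chaperone, was at 390 and 447 CPM in Clca1-low cells against 195 and 193 in Clca1-high cells. The granule and exocytosis list leaned lower than in Clca1-high cells under both scalings, at medians of -0.31 and -0.56. Over all genes the medians were 0.20 and -0.07. In each case 7 of 10 genes of the list were lower in both libraries. With totals 23.2% of all genes were lower, and the share with TMM was not counted. In this list Capn9 was at 76.3 and 74.96 CPM against 116 and 138. Sytl2, which tethers Rab27 granules, was at 131 and 134 against 185 and 192.

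Lineage factors were closer together. Atoh1 stood at 221 and 206 CPM against 190 and 177 in Clca1-high cells, and Spdef, a factor of goblet maturation, at 248 and 221 against 194 and 184. Klf4, which acts in late goblet differentiation, was lower at 352 and 267 CPM against 600 and 498. The Notch ligand gene Dll1 was at 44.5 and 60.7 CPM against 34.0 and 38.4. With totals 10 of 12 secretory progenitor and lineage factors at level were higher in both libraries, where 67.1% of all genes were. With TMM, where the share of all genes was not counted, 4 of these factors were higher. Their median log2 difference of 0.26 with totals lay near the 0.20 of all genes.

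Paneth-associated genes formed a separate feature of the Clca1-low cells. Of 13 at level, 5 were at least 2-fold higher than in Clca1-high cells in both libraries and none 2-fold lower, and the median log2 difference was 1.39. Defa17 stood at 1170 and 1165 CPM against 104 and 197. Defa24 stood at 15704 and 11148 CPM against 2899 and 5837, log2 differences of 2.43 and 0.93. Lyz1, the Paneth lysozyme, was at 578 and 882 CPM against 150 and 507. Reads of these near-identical defensin copies may be assigned to the wrong one, so values of single defensins are uncertain.

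The proportions of the defensins were set beside those of Paneth cells, whose choice by Defa20 sets their ratio to Defa20 in part. In Paneth cells of Si8, picked after the values were seen as cells with at least 100 of Defa20, Defa21 and Defa22 per 10000 and under 50 of Muc2 (14 and 55 cells), Defa24 stood at 197521 and 181864 CPM and Defa20 at 110753 and 89815. In Clca1-low cells Defa24 stood at 15704 and 11148 CPM and Defa20 at 99.8 and 584. UMIs of Defa24 per UMI of Defa20 were thus 157 and 19.1 in Clca1-low cells and 47.0 and 11.3 in Clca1-high cells. They were 4.05 and 2.21 in absorptive cells and 1.78 and 2.02 in Paneth cells. The Defa20 of Clca1-low cells was low and uneven, and the 10% with most of it held 76.4% and 56.1%. Its medians of 0.51 and 3.63 UMIs per 10000 lay near the 0.49 and 3.77 of Clca1-high cells. How far background Defa20 sets these ratios was not tested. Absorptive cells held 179 and 776 CPM of Defa24, which is the level in cells that should lack it. As a share of UMIs, Mmp7 was nearly as high in Clca1-low cells, at 1767 and 1284 CPM, as in Paneth cells at 2127 and 1362. Absorptive cells held 17.7 and 14.3 CPM. Paneth cells had medians of 67295.5 and 80330 UMIs, against 19487.5 and 19110 in Clca1-low cells. A like CPM of Mmp7 is therefore not a like number of UMIs per cell. Reg4 was in Paneth cells too, at 780 and 900.3 CPM.

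Among the Clca1-low cells 1 and 4 had at least 20 of Defa20, Defa21 and Defa22 per 10000. Without such cells in both groups the mean log2 difference of Defa17 over the libraries was 2.63 in place of 2.94, that of Itln1 2.22 in place of 2.26 and that of Reg4 3.16 in place of 3.26. Retnlb moved from 2.32 to 1.89. The count of higher genes was then 13 and that of lower genes 24.

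**Figure D3:**
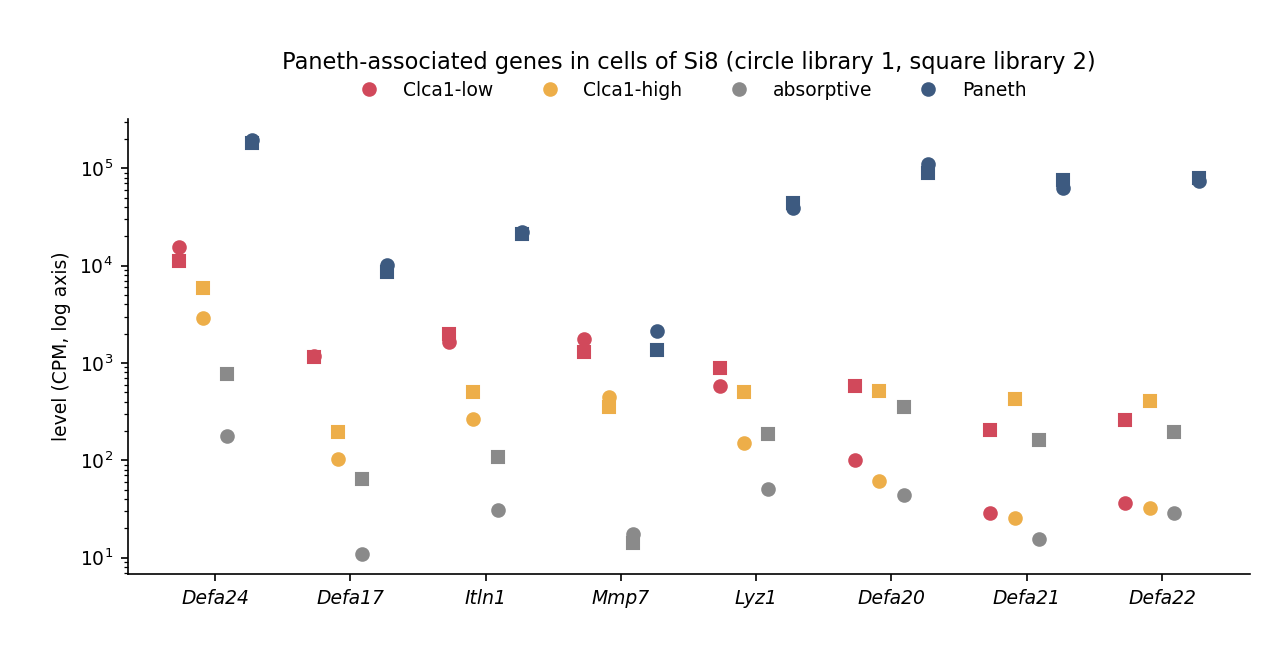
Level in CPM (log axis) of 8 Paneth-associated genes in Clca1-low, Clca1-high, absorptive and Paneth cells of Si8, circles for library 1 and squares for library 2. As a share of UMIs, Mmp7 is nearly level between Clca1-low and Paneth cells, which differ in UMIs per cell. Defa20, Defa21 and Defa22 are far above the other cells in Paneth cells alone.

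Cell by cell, the Clca1-low cells were uneven. Reg4 had a median of 1.22 and 2.47 UMIs per 10000 and reached 63.1 and 138. The 10% of cells with most Reg4 held 60.1% and 59.2% of its total (in values per 10000). A UMI of Reg4 was seen in 67.9% and 78.6% of Clca1-low cells (exact 95% intervals 60.01 to 75.2 and 71.9 to 84.3), and in 16.3% and 39.4% of Clca1-high cells. In absorptive cells, with median depths of 25169 and 23955 UMIs, Reg4 had no UMI in the 19 cells of library 1, where 3 UMIs would be 6.63 CPM, and a UMI in 32.5% of the 123 cells of library 2, at 16.6 CPM. After each cell was thinned to 5000 UMIs the shares were 54.3% and 61.0% in Clca1-low, 7.75% and 16.6% in Clca1-high and 0% and 5.69% in absorptive cells. Thinning left out 5 Clca1-low and 44 Clca1-high cells of library 1 and none of library 2.

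Retnlb was concentrated further. It had a UMI in 18.6% and 13.7% of Clca1-low cells, and the 10% with most of it held 90.9% and 97.8% of its total. Defa24 had medians of 21.4 and 20.1 UMIs per 10000, but reached 2344 and 2294, while 10% of cells lay under 1.69 and 7.01. Itln1 had medians of 1.14 and 2.89, against 0.86 and 1.89 in Clca1-high cells. Defa17 had medians of 0.47 and 0.98, against 0 and 0.77. The 10% of Clca1-low cells with most Defa17 held 74.7% and 81.3% of its total. Agr2 was even by comparison, with medians of 373 and 342 and a range from 23.2 to 598 and from 30.4 to 666. Pdia5 had a UMI in 94.9% and 96.7% of the cells, with medians of 3.28 and 2.49 per 10000, and absorptive cells held a UMI of it in 21.1% and 26.0%.

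**Figure D4:**
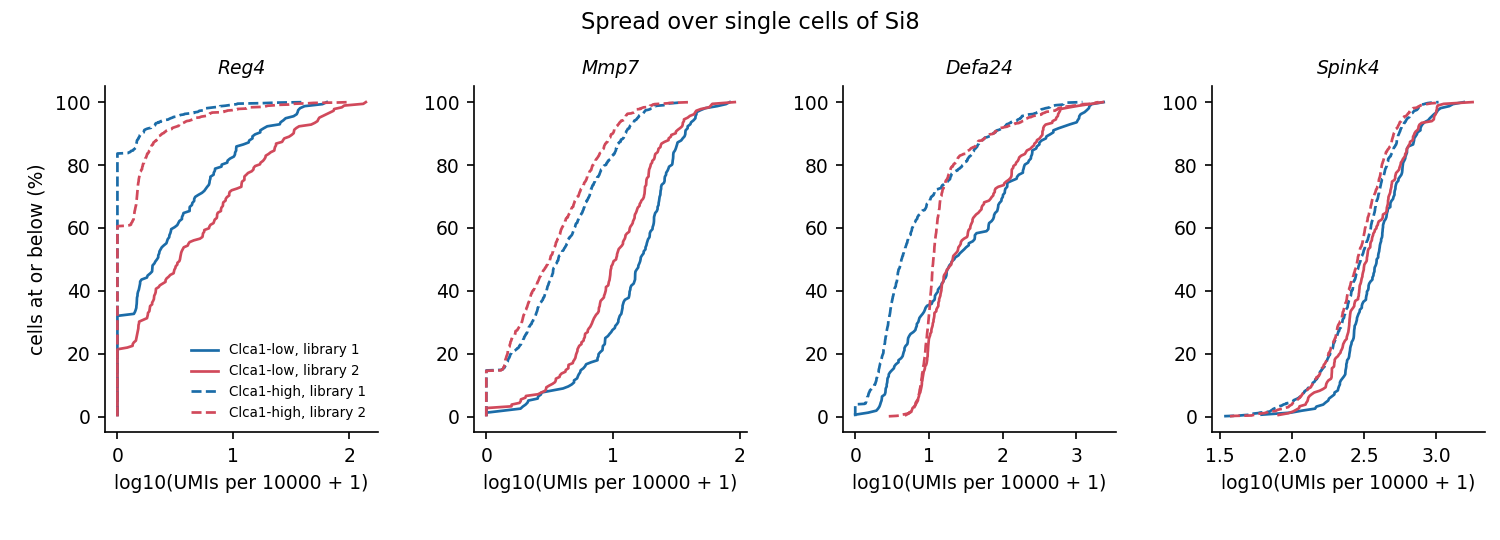
Cumulative share of cells (%) at or below a level, log10(UMIs per 10000 + 1), for 4 genes in Clca1-low (solid) and Clca1-high (dashed) cells of Si8 library 1 (blue) and library 2 (red). The Reg4 curves of Clca1-high cells leave 16.3% and 39.4% of cells above 0, and the Defa24 curves of Clca1-low cells are the most spread out.

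Genes of the Clca1-low cells fell into sets that went together from cell to cell, here as Spearman's rho over 156 and 182 cells that share library, scaling and selection. Defa24 went with Spink4 (rho 0.56 and 0.67), with Itln1 (0.55 and 0.59) and with Mmp7 (0.48 and 0.54). Reg4 went with Spink4 (0.40 and 0.56) and less with Mmp7 (0.35 and 0.24). Zg16 went with Fcgbp (0.45 and 0.61) and Tff3 (0.45 and 0.48). Across these sets most values were low or negative, as for Reg4 and Fcgbp (-0.33 and -0.30). The sets were not fully apart, since Spink4 also went with Tff3 (0.46 and 0.36). Agr2 ran against Defa24 (-0.44 and -0.30).

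Against all other kept Si8 cells, 12 of 2101 genes were at least 2-fold higher in Clca1-low cells of both libraries (0.571%) and 39 lower (1.86%). Without Si8 replicate 1 the higher genes were 28. The higher genes were Reg4, Retnlb, Mmp7, Hpd, Cd24a, Oit1, Car8, Pdia5, Slc35a1, Tmprss2, Ceacam10 and Fkbp11. Reg4 stood at 505 and 1068 CPM against 91.3 and 199 in the other cells, and Pdia5 at 330 and 251 against 146 and 102. Car8, related to carbonic anhydrases, stood at 205 and 204 CPM against 85.9 and 79.3, and Fkbp11, an ER prolyl isomerase, at 482 and 428 against 233 and 160. Secretory pathway genes leaned higher in this comparison: 34 of 36 ER folding genes, 52 of 53 of ER translocation and transport and 24 of 26 of glycosylation were higher in both libraries, against 52.4% of all genes at level. Their medians were 0.51, 0.45 and 0.51 against 0.10, and with TMM scaling the all-gene median was 0.09.

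Many of the lower genes belong to other cell types. Of 23 Paneth genes at level 16 were at least 2-fold lower, such as Defa21 at 29.0 and 205 CPM against 2831 and 6963. Of 8 small intestinal absorptive genes 6 were lower in both libraries, against 25.9% of all genes. The bile acid carrier Fabp6 stood at 71.8 and 572 CPM against 1959 and 4116. The rule takes out cells with mitotic transcripts, and genes of dividing cells outside it were lower along with that choice, with Hmgb2 at 85.3 and 145 CPM against 277 and 520, and Stmn1 at 11.7 and 35.9 against 69.0 and 191.

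Markers of further cell types were near 0 in Clca1-low cells. The leukocyte markers Ptprc and Cd3e had no UMI in either library, the tuft markers Dclk1 and Trpm5 had 1 UMI and 2 UMIs over both, and the enterocyte marker Fabp1 had 2 and 3. Summed over the 14 stromal and endothelial markers the level was 1.04 and 1.43 CPM. The 18 immune markers summed to 432 and 209 CPM, of which Cd74, the MHC class II invariant chain that epithelium also makes, was 426 and 204. Cd74 was higher than in Clca1-high cells, at 155 and 72.4 CPM, and absorptive cells held 1413 and 922.

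The next comparison set Clca1-low cells against DC cells that pass the same thresholds, to ask how such cells differ between the regions, a contrast the selection did not use. The fixed Clca1 threshold takes another part of the colonic goblet cells, since low cells were 59.6% and 79.0% of low and high cells in DC and 20.3% and 18.9% in Si8. By edgeR's quasi-likelihood test on sums per library, 2951 of 9676 genes (30.5%) passed an adjusted p of 0.05, 1466 higher (15.2%) and 1485 lower (15.3%) in Si8. With library totals alone in place of TMM, 24.9% of 3510 called genes were higher in Si8 in place of 49.7%, and the median log2 difference over all genes went from -0.03 to -0.29. DESeq2 called 1912 genes, and edgeR 1599 after thinning.

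Genes higher in the Si8 cells included a galectin and Paneth-associated products. Lgals2, a galectin of the gut epithelium, stood at 10469 and 10162 CPM in Si8 against 8.72 and 8.13 in DC, a log2 difference of 10.52 ± 0.24 (SE; edgeR adjusted p = 3.21e-09). Itln1 stood at 1633 and 1988 CPM against 7.63 and 7.26, a log2 difference of 8.19 ± 0.22 (edgeR adjusted p = 6.01e-09). Defa17 had no UMI in 1271 DC cells and was at least 5091-fold higher, with 3 UMIs over the group as the floor. Mmp7 had 1 UMI in DC against 9623, which is a 19660-fold difference in level (3528 to 776592 as its 95% counting limits). Car8 and B4galnt1, a ganglioside glycosyltransferase, and Tm4sf5 completed the group, together with Defa24. Reg3b and Reg3g, antibacterial lectins, had no UMI in the DC cells and 22536 and 43058 UMIs in the Si8 cells, though absorptive cells of Si8 held more Reg3b, at 50444 and 18752 CPM against 4256 and 2910.

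Colonic genes were lower in the Si8 cells. Hoxb13, a posterior homeobox gene, and the anion channel gene Best2 had no UMI in the 338 Clca1-low cells, which makes them at least 903-fold and 671-fold lower. Sval1 stood at 98.1 and 126 CPM in Si8 against 11061 and 11166 in DC, and the zymogen granule gene Sycn at 1.73 and 2.85 against 730.4 and 730.5. Adh1, Wfdc2, Plpp1 and the sialyltransferase gene St6gal1 were the others with the smallest adjusted p. Reg4 was lower in Si8 than in DC cells, at 505 and 1068 CPM against 5467 and 6619, a log2 difference of -2.69 ± 0.30 (edgeR adjusted p = 7.39e-05).

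Of the goblet markers 17 of 40 tested were higher in Si8 and 10 lower. Agr2 was higher by 1.44 ± 0.20 on the log2 scale, Spink4 by 1.304 ± 0.18 and Pdia5 by 1.119 ± 0.17 (edgeR adjusted p = 0.000389, 0.000353 and 0.000708). Of 46 ER folding genes 32 were higher and 3 lower in Si8, and of 59 ER translocation and transport genes 41 were higher and none lower, against 15.2% and 15.3% of all genes. Those counts were 23 and 6, and 33 and 1, with library totals alone. The ER gene Creld2 stood at 216 and 189 CPM against 52.3 and 68.8. Of 7 MHC class II genes 6 were higher in Si8, with H2-Ab1 at 226 and 158 CPM against 2.91 and 7.45. Differences did not pass for Cd24a (log2 0.39 ± 0.16, edgeR adjusted p = 0.0877), Sox9 (-0.37 ± 0.16, adjusted p = 0.102) and Atoh1 (-0.50 ± 0.23, adjusted p = 0.136). For the 77 ribosomal protein genes 9 were higher and none lower, and none passed with library totals alone.

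Finally, the difference between Clca1-low and Clca1-high cells was compared between Si8 and DC, which tests whether it has the same size in both regions. The classes are not alike in the regions, since low cells were 20.3% and 18.9% of low and high cells in Si8. In DC they were 59.6% and 79.0%, and the part of this in the differences was not tested. By edgeR with the library as a block, 231 of 10033 genes (2.3%) differed, 100 higher (0.997%) and 131 lower (1.31%) in Si8. With library totals alone 74.9% of 346 called genes were higher in place of 43.3%. Without the library block 3 genes passed, and 14 of the 16 genes named here did not. Without Si8 replicate 2 the count was 144.

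Reg4 and Cd24a were higher in Clca1-low cells of both regions and by more in Si8. In DC, Reg4 stood at 5467 and 6619 CPM in Clca1-low against 1947 and 1584 in Clca1-high cells, and the log2 difference was larger in Si8 by 1.54 ± 0.17 (edgeR adjusted p = 4.87e-07). Cd24a stood at 337 and 431 CPM against 256 and 283 in DC, and the difference was larger in Si8 by 1.44 ± 0.14 (edgeR adjusted p = 2.41e-08). For Retnlb the direction differed, with 5.08 and 12.8 CPM in Clca1-low against 51.9 and 19.4 in Clca1-high cells of DC, while Si8 had 114 and 79.8 against 18.5 and 5.67. Ang4, an antibacterial ribonuclease, was level in Si8, at 87.4 and 248 CPM against 89.1 and 267, and lower in Clca1-low cells of DC, at 15.6 and 10.4 against 431 and 136.

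Sval1 and Ffar4 differed between the classes mainly in Si8, and Guca2a in DC. Sval1 was lower in Clca1-low cells of Si8, at 98.1 and 126 CPM against 271 and 285, and level in DC, at 11061 and 11166 against 10970 and 11780. Ffar4, a receptor for long-chain fatty acids, stood at 56.3 and 26.2 CPM against 154 and 81.4 in Si8 and at 295 and 186 against 345 and 241 in DC. Guca2a, which encodes guanylin, was higher in Clca1-low cells of DC, at 1698 and 1926 CPM against 805 and 798, and not in Si8, at 9981 and 10534 against 11021 and 12603.

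Of 13 mucus components tested 3 differed between the regions, Ang4, Retnlb and Itln1 (2.48 ± 0.39, edgeR adjusted p = 0.000145), against 2.3% of all genes. The difference did not pass for Zg16 and Fcgbp. Zg16 stood at 16608 and 12741 CPM in Clca1-low against 51013 and 71796 in Clca1-high cells of DC, and the log2 difference in Si8 minus that in DC was -0.17 ± 0.21 (edgeR adjusted p = 0.796). Fcgbp gave -0.08 ± 0.18 (adjusted p = 0.908), Id3 0.22 ± 0.16 (adjusted p = 0.596), Guca2b -0.13 ± 0.16 (adjusted p = 0.790) and Pdia5 0.35 ± 0.14 (adjusted p = 0.209). Beside the 2.3% of all genes that differed, none of 59 ER translocation and transport genes did, 3 of 46 ER folding genes (10 with library totals alone) and none of the 77 ribosomal protein genes. On simulated counts this test found 37% of 2-fold and 96% of 4-fold changes. These counts had a fixed dispersion and no difference between libraries beyond depth, so the shares need not hold for the real counts.

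**Figure D5:**
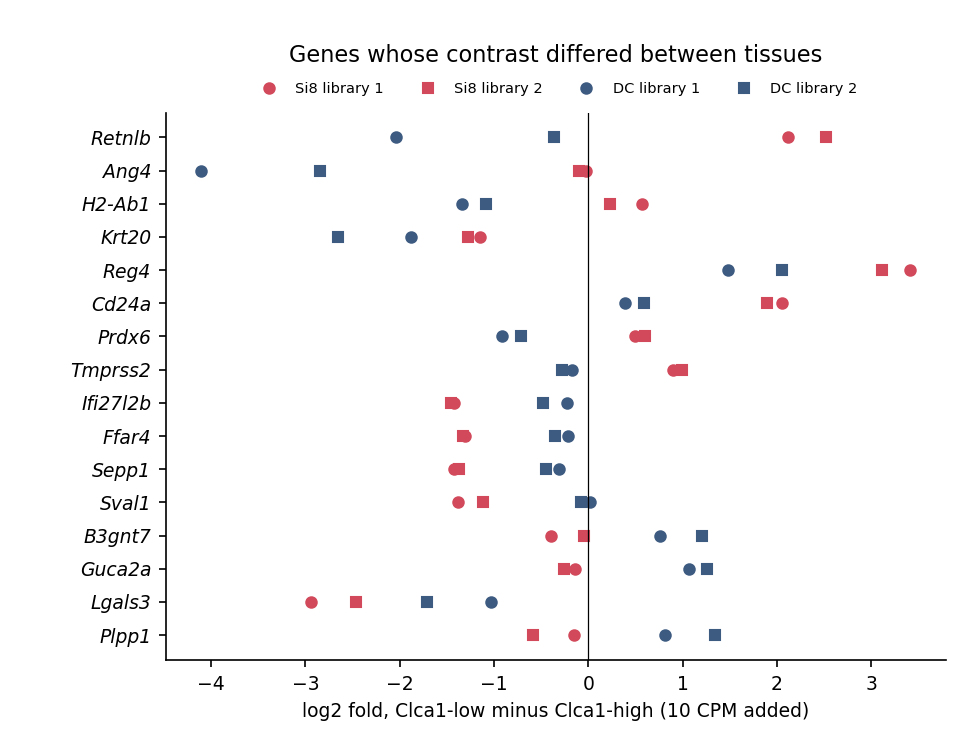
Log2 difference between Clca1-low and Clca1-high cells (10 CPM added) in each library of Si8 (red) and DC (blue). Circles are library 1 and squares library 2. The 16 genes have the smallest adjusted p of the interaction test at 50 CPM or more, taken in equal numbers higher and lower in Si8. Red and blue points do not overlap in any row. The genes were chosen by that test, so the gap adds no support. The share of all tested genes with such a gap was not counted.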

How the data were processed

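Raw UMI counts per gene and barcode were deposited by the authors, without normalization, for 4 libraries. Per the submitters' processing notes they were made with Cell Ranger 2.1.1 on mm10, and the gene annotation was not stated. A barcode was kept with 500 or more genes detected and no more than 20% of UMIs from mitochondrial genes, which left 10522 of 10827. The cell thresholds, gene lists (21, and 3 chosen later) and comparisons were chosen with earlier results of these data known. Scrublet (scanpy 1.11.5) gave doublet scores. Its own threshold marked 4, 1, 11 and 0 cells, so leaving out the highest scores, up to 0.8% per 1000 barcodes, served as an alternative. Absorptive cells had at least 50 per 10000 of the summed absorptive markers and under 10 of Muc2.

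UMIs were summed per library and class. Tests used edgeR 4.0.16 (TMM, filterByExpr with a minimum count of 10, quasi-likelihood, Benjamini-Hochberg threshold of 0.05), with DESeq2 1.42.0 as an alternative, and were tested on simulated data. Genes named are the 12 highest and 8 lowest against all other Si8 cells, 12 each way against Clca1-high cells, and 8 each way by adjusted p in each test, at 50 CPM or more, besides leading and abundant list genes. Others were named after their values were seen. Intervals and floors cover counting error only. Gene starts were checked in GENCODE M21 (GRCm38), where 28341 of 28694 identifiers matched.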

Additional observations from a re-analysis of the deposited data

Results flagged for a closer look

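The difference between Clca1-low and Clca1-high cells was not the same in Si8 and DC for 16 genes singled out by the edgeR interaction test, and they are listed for that reason. Values are log2 differences in Si8 minus those in DC, with SE. It was higher in Si8 for Ang4 (3.95 ± 0.19), Retnlb (4.52 ± 0.38), Cd24a (1.44 ± 0.14), Prdx6 (1.34 ± 0.13), H2-Ab1 (2.39 ± 0.26), Reg4 (1.54 ± 0.17), Krt20 (1.87 ± 0.22) and Tmprss2 (1.118 ± 0.13). It was lower in Si8 for Guca2a (-1.50 ± 0.15), Sval1 (-1.41 ± 0.15), Ffar4 (-1.34 ± 0.15), Lgals3 (-1.55 ± 0.18), Sepp1 (-1.35 ± 0.15), B3gnt7 (-1.43 ± 0.16), Ifi27l2b (-1.19 ± 0.14) and Plpp1 (-2.27 ± 0.27). The edgeR adjusted p of these genes ran from 6.87e-16 to 9.36e-07. DESeq2 gave an adjusted p under 0.05 for 15 of them, with 0.173 for Krt20. Without the library as a block Prdx6 and Guca2a passed, with adjusted p of 0.0340 and 0.0347. Plpp1 had 5.87 and 6.27 CPM in Clca1-low cells of Si8, from 17 and 22 UMIs.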

How the results depend on the processing

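The number of Clca1-low cells, 338, ranged from 234 (Clca1 under 20) to 465 (under 40) over its 5 alternatives. Against all other Si8 cells, the 12 higher genes became 20 with 1 CPM added and 16 to 28 in a single library, where 1 library has to pass in place of 2, and the 39 lower genes became 102 without a minimum level and 50 to 55 in a single library. Against Clca1-high cells the 16 higher genes became 25 with 1 CPM added, 25 without a minimum level, 26 with means over cells, 25 after thinning to 5000 UMIs and 20 to 41 in a single library, and the 24 lower genes 26 to 31 in a single library. The 2951 genes of the tissue test became 1912 with DESeq2 and 1599 after thinning, and 2039 to 2928 when a library was left out. The 231 genes of the interaction became 43 with DESeq2, 375 without the count filter, 121 after thinning, 3 with no replicate block and 144 to 303 when a library was left out. The cause was not tested beyond fewer samples, genes or UMIs where these are named. With the replicate number as a block the tissue test called 3619 genes, 2950 of them shared. Same-numbered deviations correlated at r = 0.163 over 9676 genes, and with 2 pairs the numbers were not taken to pair the libraries. Over their alternatives the 16 named genes of the tissue test kept direction and call in all 224 values, those of the interaction lost the call in 15 of 224 without a change of direction, and the 131 named folds inside Si8 moved by more than the spread between libraries in 279 of 1310 values, none of the 2-fold ones reversing. The depth of 2 libraries per region limits the tests to their spread. Cells with 20 or more of Defa20, Defa21 and Defa22 were left out as an alternative chosen after seeing the data.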

Other observations

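Transcripts of gut peptide hormones were present in the Clca1-low cells without the markers of enteroendocrine cells. Sct, which encodes secretin, stood at 484 and 436 CPM in Clca1-low cells and at 571 and 591 CPM in Clca1-high cells, and a UMI of it was seen in 96.2% and 95.6% of Clca1-low cells. Absorptive cells of the same libraries held 122 and 22.1 CPM, with a UMI in 52.6% and 39.0% of them at median depths of 25169 and 23955 UMIs. Chga and Chgb, the chromogranins of enteroendocrine granules, had 4 and 3 UMIs over all 338 Clca1-low cells. In DC cells passing the same thresholds Sct stood at 12.3 and 6.87 CPM, and the log2 difference between the regions was 5.98 ± 0.26 (edgeR adjusted p = 1.03e-07). Tac1, which encodes substance P, stood at 263 and 53.9 CPM in the Clca1-low cells of libraries 1 and 2, so that it differed more between the libraries than from Clca1-high cells, at 300.1 and 58.0 CPM.

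Interferon-related genes leaned lower in Clca1-low than in Clca1-high cells of Si8. With library totals 7 of 10 at level were lower in both libraries, where 23.2% of all genes were. With TMM scaling 10 of 11 were lower. The share of all genes with TMM was not counted, and their median moved from 0.20 to -0.07. The other 3 of the 10 were higher in both libraries with totals. Ifi27l2b stood at 366 and 445 CPM against 999.9 and 1239.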
